A study of Caenorhabditis elegans with 10 samples.

Results

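The genes described here are 39 genes of synaptic release and neurotransmission in Caenorhabditis elegans, chosen by gene name, of 17118 genes with a probe set of their own on the array. They were chosen with earlier results of these data known. Counts among them, set beside shares over all probe sets, are therefore a description and no test. Each gene was represented by the probe set annotated to it alone that had the highest mean signal over all 10 arrays, and 34 of the 39 were bright enough to test. The 39 comprise 10 genes of the vesicle release machinery, 5 of dense-core vesicles and peptide processing, 12 of transmitter synthesis, loading and reuptake, 7 receptor subunits, 3 genes for G proteins and a potassium channel, and 2 axonal transport motors. RNA came from whole animals, 200 to 500 per sample, raised from synchronised first-stage larvae until most had reached the L4 stage. The 10 arrays held 3 of wdr-23 mutants under skn-1 RNAi, 4 of wdr-23 mutants under control RNAi and 3 of the wild-type strain N2, also under control RNAi. The wdr-23 allele is given as tm1718 with the samples and as tm1817 in the design text. All animals fed on HT115 bacteria carrying a plasmid for double-stranded RNA, on agar with carbenicillin at 50 ug/ml and lactose at 0.2%. N2 animals with skn-1 RNAi were not analysed here, so an effect of skn-1 RNAi that does not need the wdr-23 mutation cannot be told apart from one that does. Both wdr-23 groups carry the mutation in every cell, the RNAi was given by feeding, and neurons are one of many tissues in such a sample.

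WDR-23 is an adaptor of a cullin ubiquitin ligase that holds down the transcription factor SKN-1, the worm relative of the Nrf factors, which switches on detoxification genes. At a synapse, transmitter is made by dedicated enzymes, loaded into vesicles by vesicular transporters, and released when the SNARE proteins of vesicle and plasma membrane zip together after calcium entry. Neuropeptides take another route: their precursors are cut and trimmed inside dense-core vesicles, which have a release machinery of their own. In worms, acetylcholine excites and GABA inhibits the body-wall muscle, while serotonin, dopamine, tyramine and octopamine tune feeding, egg laying and locomotion.

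The values are MAS5 signals, in arbitrary units that are linear in probe brightness. Array medians were 134.8 to 139.7 in wdr-23 animals with control RNAi, above those of both other groups. They were 118 to 125.3 in wdr-23 animals with skn-1 RNAi and 113 to 119.2 in N2. Changes are differences of log2(signal + 19), fitted with limma over 15783 probe sets, and folds on this scale understate the change of dim genes. A gene was said to rise or fall, and is called, at a Benjamini-Hochberg adjusted p under 0.05. The skn-1 transcript had signals of 257 ± 28.0 (SD, n = 3) in wdr-23 animals with skn-1 RNAi, 474 ± 70.1 (SD, n = 4) in wdr-23 animals with control RNAi and 454 ± 68.7 (SD, n = 3) in N2 animals. With skn-1 RNAi it was lower than in wdr-23 animals with control RNAi, with a log2 change of -0.83 (adjusted p = 0.000708, SE 0.14). The wdr-23 transcript had 902 ± 18.6 (SD, n = 3) with skn-1 RNAi, 3259 ± 453 (SD, n = 4) in wdr-23 animals with control RNAi and 865 ± 151 (SD, n = 3) in N2. Whether its probes lie in the part removed by the allele was not analysed here, so that this signal does not check the genotype labels. In whole animals, fewer cells of a type and less RNA per cell cannot be told apart.

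In wdr-23 animals with control RNAi, 12 of the 39 genes rose and 1 fell relative to N2 animals. Over all tested probe sets, 17.4% rose and 10.1% fell in that comparison. The genes that rose were the peptide-processing genes egl-3, egl-21 and sbt-1, the monoamine genes bas-1 and cat-1, the GABA transporter gene snf-11, the release genes unc-13, snt-1 and aex-3, and the receptor genes unc-49, unc-38 and lev-1. The tyramine-synthesis gene tdc-1 was the one that fell. The median log2 change was 0.37 over the 34 tested genes, from -0.53 for tdc-1 to 1.34 for bas-1, and 0.01 over all tested probe sets. With no filter on dim probe sets, all 39 genes had a median of 0.39 and all probe sets one of 0.03, and 10 genes rose and 1 fell. After quantile normalization or median centring 7 rose and 1 fell, and the medians were 0.20 and 0.17 over the 34 genes against -0.06 and -0.19 over all probe sets. The 8 genes called under either of these scalings were all among the 13 above. Over the 34 tested genes, the arrays of wdr-23 with control RNAi lay all above N2 for 12 and all below for 1, beside 20.3% and 13.6% of all tested probe sets. They also lay all above N2 for unc-31 and cat-2, which were too dim to test.

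With skn-1 RNAi, 11 of the 39 genes fell and 1 rose in wdr-23 animals relative to wdr-23 animals with control RNAi, beside 12.6% and 9.99% of all tested probe sets. The genes that fell were unc-13, unc-64, egl-3, egl-21, ida-1, sbt-1, snf-11, cat-1, bas-1, unc-49 and lev-1, and tdc-1 rose. The median log2 change of the 34 tested genes was -0.32, between -1.53 for bas-1 and 0.54 for tdc-1, against -0.01 over all tested probe sets. Both comparisons use the same 4 arrays of wdr-23 animals with control RNAi, so that a chance deviation of those arrays moves both in opposite directions. The arrays with skn-1 RNAi lay all below those of wdr-23 with control RNAi for 12 genes and all above for 1, beside 17.5% and 14.9% of all tested probe sets. Without replicate 1 of the wdr-23 animals with skn-1 RNAi, 7 genes fell and 0 rose. After median centring 8 genes were called, and all of them were among the 12.

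**Figure D1:**
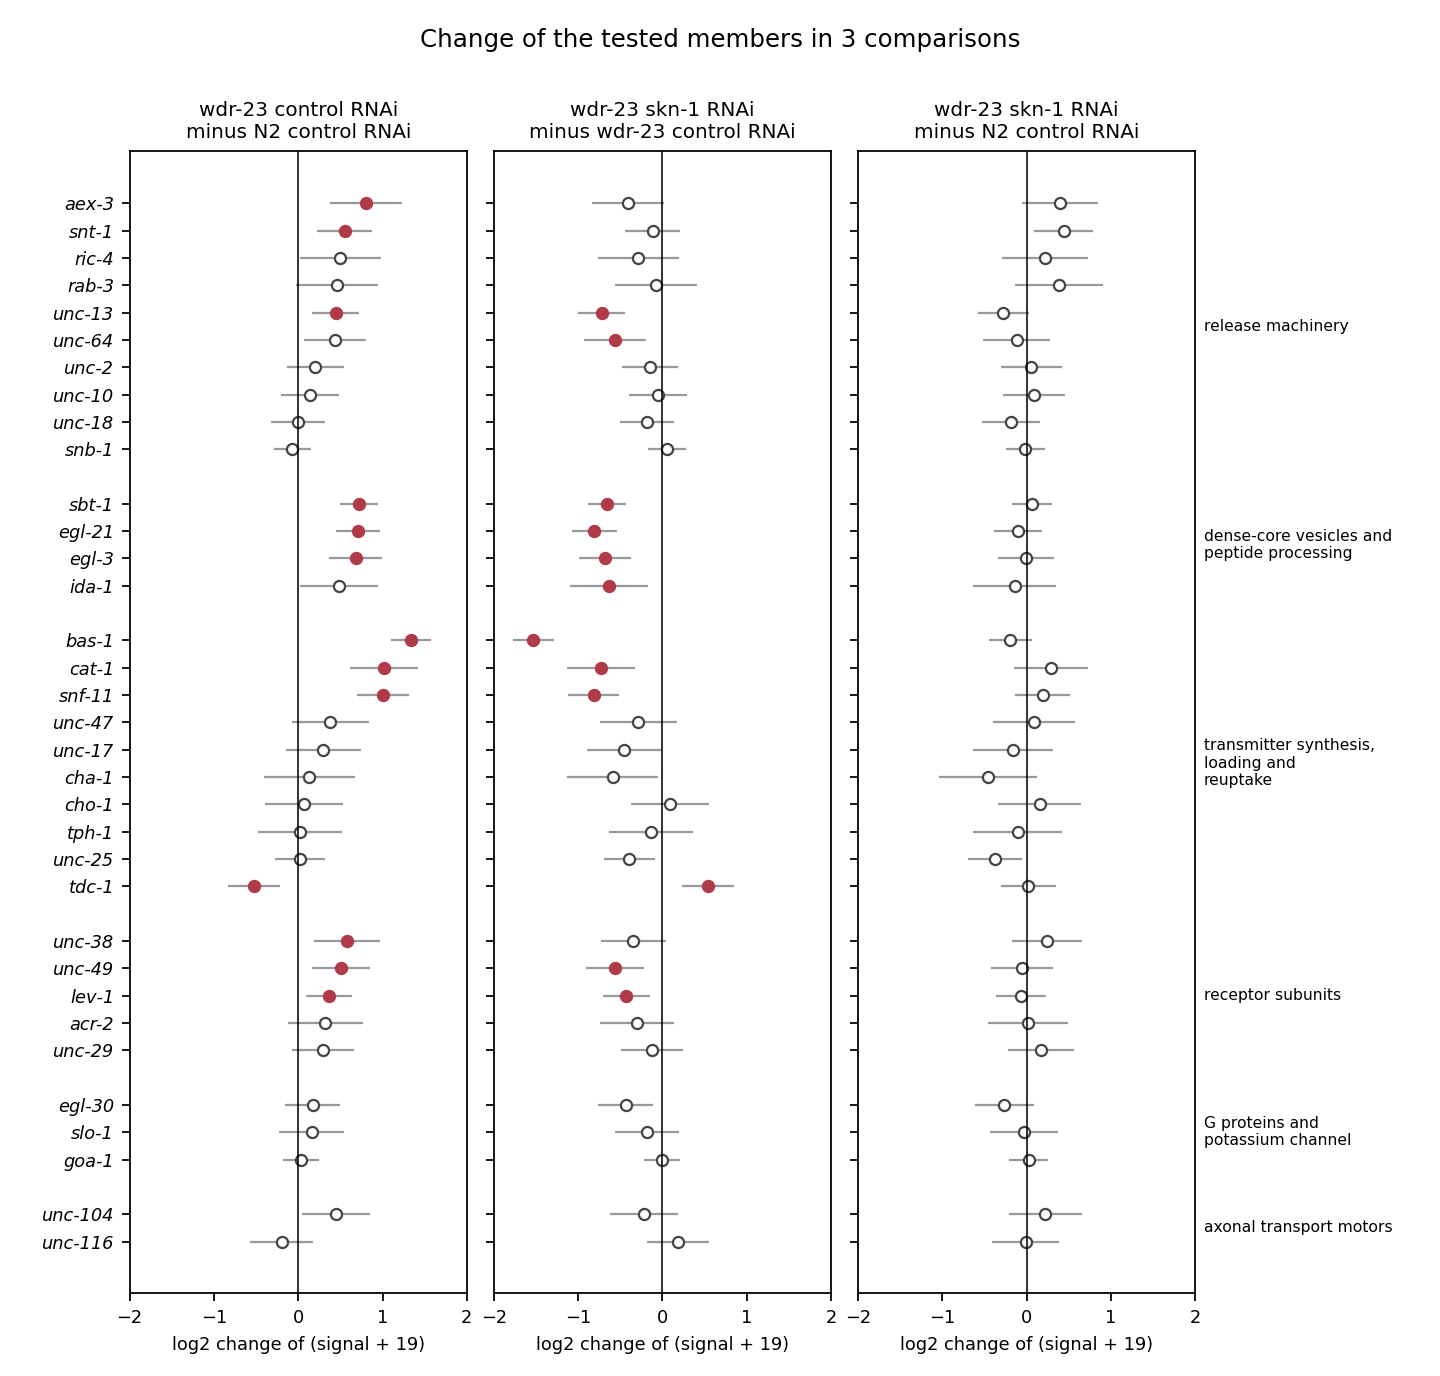
Log2 change of signal + 19 (x axis) of the 34 tested genes (rows, grouped by role) in wdr-23 control RNAi against N2 control RNAi, wdr-23 skn-1 RNAi against wdr-23 control RNAi, and wdr-23 skn-1 RNAi against N2 control RNAi. Points are limma estimates, lines their 95% confidence intervals, and filled points passed an adjusted p of 0.05: 13, 12 and 0 genes in the 3 panels.

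**Figure D2:**
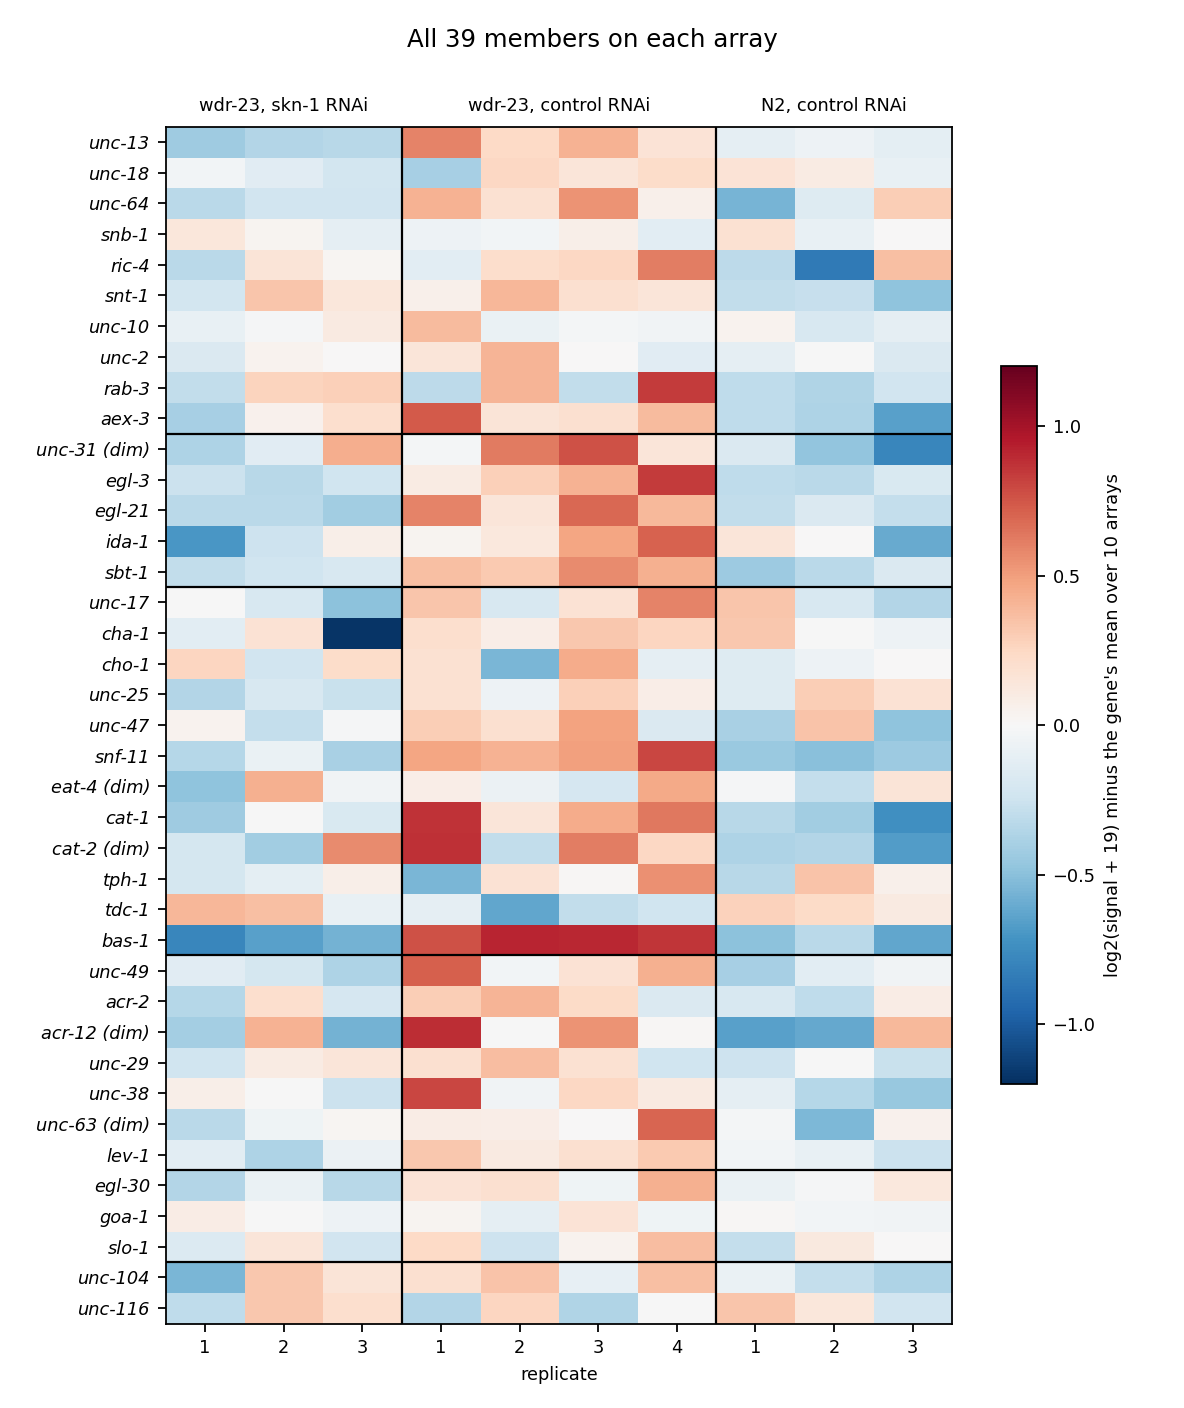
Log2(signal + 19) of all 39 genes (rows) on each of the 10 arrays (columns), minus the gene's mean over the 10 arrays, with red above and blue below that mean. The 4 arrays of wdr-23 animals with control RNAi, in the middle, are red for the peptide-processing genes and for bas-1, cat-1 and snf-11 and blue for tdc-1, and the 5 genes marked dim were left out of the test.

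Among the 39 genes, egl-3, egl-21 and sbt-1 act on neuropeptide precursors. All 3 rose in wdr-23 animals with control RNAi and fell with skn-1 RNAi. Of 19 further tested genes of dense-core vesicles and peptide processing, 15.8% rose and 0% fell in the first comparison. In the second comparison 10.5% of these fell and 0% rose. Of all tested probe sets, 17.4% rose and 10.1% fell in the first, and 12.6% fell and 9.99% rose in the second. The egl-3 transcript, encoding the proprotein convertase that cuts precursors, had signals of 673, 638 and 679 in wdr-23 animals with skn-1 RNAi, 863, 989, 1081 and 1460.4 in wdr-23 animals with control RNAi and 648, 641 and 711 in N2 animals. The egl-21 transcript, encoding the carboxypeptidase that trims the cut peptides, had 1117, 1115 and 1041 with skn-1 RNAi, 2124, 1549, 2267 and 1843 in wdr-23 animals with control RNAi and 1134, 1237 and 1144 in N2. For sbt-1, which encodes the chaperone of EGL-3, the signals were 1362, 1414 and 1464 with skn-1 RNAi, 2154, 2082, 2491 and 2259 in wdr-23 animals with control RNAi and 1237, 1338 and 1481 in N2. For all 3 genes, every array of wdr-23 animals with control RNAi lay above every array of both other groups, and those other groups overlapped or lay close together. Relative to N2, egl-3 rose 1.6-fold, a log2 change of 0.68 (adjusted p = 0.00272, SE 0.15) in wdr-23 animals with control RNAi. In the same comparison egl-21 rose 1.63-fold, a log2 change of 0.71 (adjusted p = 0.000577, SE 0.13), and sbt-1 rose 1.65-fold, a log2 change of 0.73 (adjusted p = 9.69e-05, SE 0.11). With skn-1 RNAi, all 3 fell relative to wdr-23 animals with control RNAi, with log2 changes of -0.69 (adjusted p = 0.00336, SE 0.15) for egl-3, -0.81 (adjusted p = 0.000233, SE 0.13) for egl-21 and -0.66 (adjusted p = 0.000343, SE 0.11) for sbt-1. These 6 calls held without any 1 array and in each alternative that kept the probe set.

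The ida-1 transcript, encoding a tyrosine phosphatase-like protein of the dense-core vesicle membrane, had signals of 85.4, 124 and 159 in wdr-23 animals with skn-1 RNAi, 155, 166, 216 and 259 in wdr-23 animals with control RNAi and 169, 151 and 92.9 in N2 animals. The groups overlapped. It fell with skn-1 RNAi, with a log2 change of -0.63 (adjusted p = 0.0486, SE 0.22). That call was lost without N2 replicate 2 (-0.63, adjusted p = 0.0564), without replicate 1 (-0.42, adjusted p = 0.236) or 2 (-0.65, adjusted p = 0.0963) of wdr-23 with skn-1 RNAi, and without replicate 3 (-0.58, adjusted p = 0.0985) or 4 (-0.50, adjusted p = 0.131) of wdr-23 with control RNAi. It was also lost under 6 other alternatives, at -0.71 to -0.48. Relative to N2, ida-1 changed by 0.49 (adjusted p = 0.108, SE 0.22) in wdr-23 animals with control RNAi, which did not pass the test. The unc-31 transcript, encoding the CAPS protein needed for dense-core vesicle release, was too dim to test. Its signals were 10.6, 15.9 and 32.7 with skn-1 RNAi, 18.7, 39.9, 46.1 and 23.2 in wdr-23 animals with control RNAi and 14.9, 8.63 and 3.19 in N2, and each array of wdr-23 with control RNAi was above N2. Summed over the 5 genes, array totals were 3248 to 3375 in wdr-23 animals with skn-1 RNAi, 4825 to 6102 in wdr-23 animals with control RNAi and 3202 to 3432 in N2 animals.

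The largest change among the 34 tested genes was in monoamine synthesis. The bas-1 transcript, encoding the aromatic amino acid decarboxylase that makes serotonin and dopamine, had signals of 469, 514 and 546 in wdr-23 animals with skn-1 RNAi, 1406, 1561, 1558 and 1505 in wdr-23 animals with control RNAi and 578, 653 and 528 in N2 animals. The wdr-23 arrays with control RNAi stood apart from all others, and the remaining groups overlapped. It rose 2.53-fold, a log2 change of 1.34 (adjusted p = 1.53e-07, SE 0.11), in wdr-23 animals with control RNAi relative to N2. With skn-1 RNAi it was 2.89-fold lower than in wdr-23 animals with control RNAi, at -1.53 (adjusted p = 4.12e-08, SE 0.11). The cat-1 transcript, encoding the vesicular monoamine transporter, had 50.1, 73.2 and 62.5 with skn-1 RNAi, 150.0, 83.6, 107 and 125 in wdr-23 animals with control RNAi and 54.7, 50.6 and 36.5 in N2. Again each array of wdr-23 with control RNAi was above all others. The rise over N2 was 2.03-fold, a log2 change of 1.02 (adjusted p = 0.000978, SE 0.19), and the fall with skn-1 RNAi was -0.73 (adjusted p = 0.0129, SE 0.19). Without replicate 1 of wdr-23 with skn-1 RNAi the fall no longer passed (-0.62, adjusted p = 0.0704).

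Of the enzymes that commit an amino acid to one monoamine, tph-1 did not pass the test, tdc-1 fell and cat-2 was too dim to test. The tph-1 transcript, encoding the tryptophan hydroxylase of serotonin synthesis, had signals of 45.98, 50.5 and 60.03 in wdr-23 animals with skn-1 RNAi, 32.5, 65.8, 56.98 and 90.9 in wdr-23 animals with control RNAi and 40.6, 76.6 and 59.2 in N2 animals. Its log2 change was 0.02 (adjusted p = 0.95, SE 0.23) in wdr-23 animals with control RNAi relative to N2, with a 95% interval of -0.47 to 0.52. The cat-2 transcript, encoding the tyrosine hydroxylase of dopamine synthesis, was too dim to test, at 13.99, 9.73 and 37.8 with skn-1 RNAi, 51.5, 12.2, 39.5 and 26.3 in wdr-23 animals with control RNAi and 10.7, 11.1 and 5.05 in N2, where every array was below those of wdr-23 with control RNAi. The tdc-1 transcript, encoding the tyrosine decarboxylase that makes tyramine in neurons and in cells of the somatic gonad, went the other way from bas-1. Its signals were 1155, 1128 and 819 with skn-1 RNAi, 807, 559, 707 and 735 in wdr-23 animals with control RNAi and 1059, 1029 and 945 in N2. Every array of wdr-23 with control RNAi was below every other array. Relative to N2, tdc-1 fell, with a log2 change of -0.53 (adjusted p = 0.013, SE 0.14) in wdr-23 animals with control RNAi, and relative to these it rose by 0.54 (adjusted p = 0.0136, SE 0.14) with skn-1 RNAi. The first call was lost without N2 replicate 1 (-0.49, adjusted p = 0.0546). The second was lost without replicate 1 (0.46, adjusted p = 0.0788) or 2 (0.47, adjusted p = 0.0665) of wdr-23 with skn-1 RNAi. Markers of the germ line moved with tdc-1: of 35 germ line and oocyte genes, 13 fell (37.1%) and 0 rose in wdr-23 animals with control RNAi, and 18 rose (51.4%) and 0 fell with skn-1 RNAi. Among all tested probe sets, 10.1% fell in the first of these comparisons and 9.99% rose in the second. Summed germ line signals were 92105 to 100292 in wdr-23 animals with skn-1 RNAi, 70492 to 79538 in wdr-23 animals with control RNAi and 86750 to 97051 in N2. The part of these markers in the tdc-1 result was not tested.

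Of 30 further monoamine genes, 18 were tested. In wdr-23 animals with control RNAi 5 rose (27.8%) and 0 fell relative to N2, beside 17.4% and 10.1% of all tested probe sets. Under quantile normalization and under median centring 3 rose and 1 fell. With skn-1 RNAi 5 fell (27.8%) and 1 rose (5.56%) relative to wdr-23 animals with control RNAi, and 4 fell and 1 rose under either other scaling. Over all tested probe sets 12.6% fell and 9.99% rose in that comparison. Genes of cofactor synthesis had the largest changes of this list. The cat-4 transcript, encoding the GTP cyclohydrolase that starts the synthesis of tetrahydrobiopterin, the cofactor of the TPH-1 and CAT-2 hydroxylases, had signals of 1054, 1380.4 and 1488 in wdr-23 animals with skn-1 RNAi, 8370.3, 9322, 9194 and 10184 in wdr-23 animals with control RNAi and 1223, 1386 and 2004 in N2 animals. It rose 6.08-fold, a log2 change of 2.61 (adjusted p = 1.18e-09, SE 0.15), in wdr-23 animals with control RNAi relative to N2, and with skn-1 RNAi it fell, with a log2 change of -2.82 (adjusted p = 5.77e-10, SE 0.15). The ptps-1 transcript, encoding the enzyme that acts next in that synthesis, had 174, 148 and 209 with skn-1 RNAi, 696, 760.0, 652 and 579 in wdr-23 animals with control RNAi and 191, 177 and 167.8 in N2. It rose by 1.80 (adjusted p = 4.28e-08, SE 0.14) on the log2 scale over N2, and with skn-1 RNAi it fell, with a log2 change of -1.82 (adjusted p = 5.59e-08, SE 0.14). For both genes the wdr-23 arrays with control RNAi lay above all other arrays. Tetrahydrobiopterin in worms also serves enzymes outside neurons, and whole-animal signals do not show in which cells cat-4 and ptps-1 rose. The tbh-1 transcript, encoding the enzyme that converts tyramine to octopamine, had 1612, 1539 and 1585 with skn-1 RNAi, 1408, 1066, 1067 and 783 in wdr-23 animals with control RNAi and 1020.0, 963 and 1042 in N2. It did not change in wdr-23 animals with control RNAi beyond the test, at 0.07 (adjusted p = 0.754, SE 0.15), and rose with skn-1 RNAi relative to them by 0.57 (adjusted p = 0.0122, SE 0.15).

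**Figure D3:**
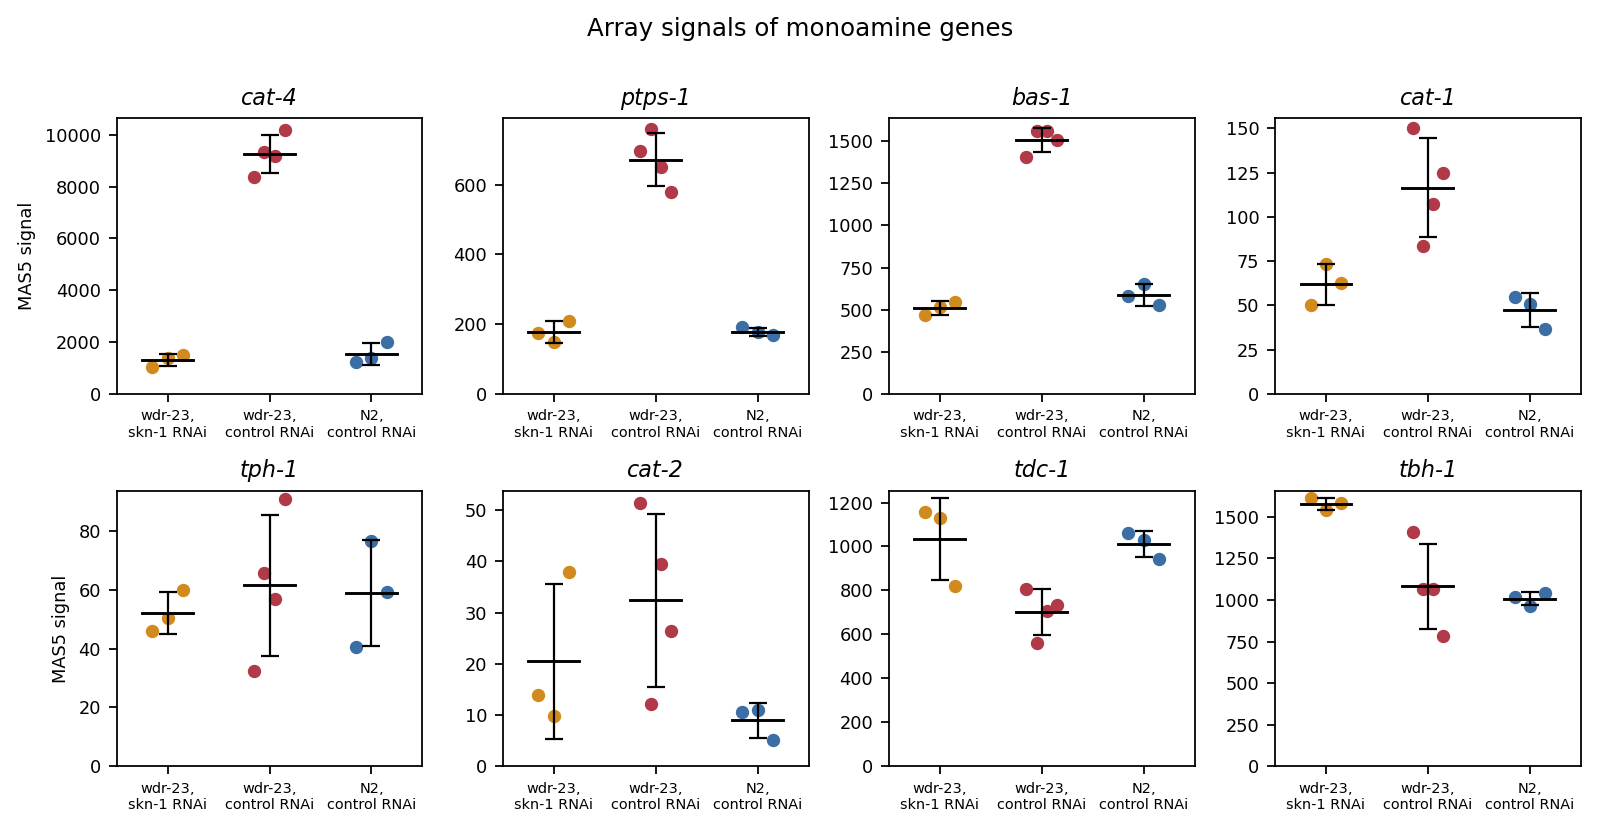
MAS5 signal (y axis, linear, from 0) of 8 monoamine genes on 3 arrays of wdr-23 with skn-1 RNAi, 4 of wdr-23 with control RNAi and 3 of N2; points are arrays, bars are mean ± SD. The signals of cat-4, ptps-1, bas-1 and cat-1 were higher on all 4 arrays of wdr-23 with control RNAi than on any other array, those of tdc-1 were lower, those of tph-1 overlapped in all 3 groups, and those of cat-2 were above N2 on all 4 arrays but overlapped those with skn-1 RNAi.

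Among the genes of GABA synthesis and transport, the one for reuptake passed the test. The snf-11 transcript, encoding the transporter that clears GABA from outside the cell, had signals of 116.2, 143 and 111.9 in wdr-23 animals with skn-1 RNAi, 218, 210.1, 222 and 279 in wdr-23 animals with control RNAi and 107, 102 and 107.6 in N2 animals. The 3 groups did not overlap, with the middle place held by the animals with skn-1 RNAi. In wdr-23 animals with control RNAi snf-11 rose 2.01-fold, a log2 change of 1.01 (adjusted p = 7.11e-05, SE 0.14), relative to N2, and with skn-1 RNAi it fell, with a log2 change of -0.81 (adjusted p = 0.000748, SE 0.14). The unc-25 transcript, encoding the decarboxylase that makes GABA, had 179.6, 203 and 192 with skn-1 RNAi, 269, 224, 289.9 and 249.6 in wdr-23 animals with control RNAi and 208, 292 and 267 in N2. It did not pass the test in any comparison, at 0.02 (adjusted p = 0.932, SE 0.14) in wdr-23 animals with control RNAi relative to N2 and -0.39 (adjusted p = 0.0569, SE 0.14) with skn-1 RNAi relative to those. The second value passed without N2 replicate 1 (-0.39, adjusted p = 0.0433) or replicate 2 of wdr-23 with control RNAi (-0.45, adjusted p = 0.04). The unc-47 transcript, encoding the vesicular GABA transporter, changed by 0.38 (adjusted p = 0.202, SE 0.22) in wdr-23 animals with control RNAi relative to N2, which of the alternatives passed only without N2 replicate 2 (0.64, adjusted p = 0.0392).

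Of the genes that make, load or take up acetylcholine and glutamate, unc-17, cha-1 and cho-1 did not pass the test and eat-4 was too dim for it. The vesicular acetylcholine transporter unc-17 and the acetylcholine-synthesising enzyme cha-1 share one locus. For unc-17 the signals were 90.1, 77.1 and 59.1 in wdr-23 animals with skn-1 RNAi, 118.7, 76.7, 105 and 147 in wdr-23 animals with control RNAi and 119.1, 76.8 and 66.8 in N2 animals. For cha-1 they were 40.3, 54.1 and 9.63 with skn-1 RNAi, 55.3, 49.4, 62.2 and 58.3 in wdr-23 animals with control RNAi and 62.1, 45.3 and 42.97 in N2, and for both genes the groups overlapped. Relative to N2, unc-17 changed by 0.30 (adjusted p = 0.304, SE 0.21) and cha-1 by 0.13 (adjusted p = 0.729, SE 0.26) in wdr-23 animals with control RNAi. With skn-1 RNAi the changes were -0.45 (adjusted p = 0.13, SE 0.21) for unc-17 and -0.59 (adjusted p = 0.108, SE 0.26) for cha-1, and the value for cha-1 passed when replicate 2 of wdr-23 with skn-1 RNAi was left out (-0.87, adjusted p = 0.0343). Another probe set of unc-17 was called in both comparisons, at 0.55 (adjusted p = 0.0425, SE 0.19) and -0.99 (adjusted p = 0.00166, SE 0.19), while its remaining probe set was not, at 0.17 and -0.34. The cho-1 transcript, encoding the choline transporter, had 74.8, 47.96 and 72.2 with skn-1 RNAi, 70.1, 34.8, 87.6 and 54.1 in wdr-23 animals with control RNAi and 51.4, 56.1 and 59.7 in N2, and changed by 0.07 (adjusted p = 0.844, SE 0.22) in wdr-23 animals with control RNAi relative to N2. The eat-4 transcript, encoding the vesicular glutamate transporter, was too dim to test, with signals from 15.4 to 45.5 with skn-1 RNAi, 22.7 to 46.99 in wdr-23 animals with control RNAi and 20.5 to 34.4 in N2. Summed over the 12 genes of transmitter synthesis, loading and reuptake, array totals were 2061 to 2395 with skn-1 RNAi, 2979 to 3371 in wdr-23 animals with control RNAi and 2193 to 2498 in N2. In the same order of groups, bas-1 alone had means of 510 ± 38.8 (SD, n = 3), 1508 ± 72.5 (SD, n = 4) and 586 ± 63.2 (SD, n = 3). The higher totals therefore rest mainly on this bright gene and do not show a rise of the whole class. Of the 12 genes, 3 rose and 1 fell over N2.

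In the release machinery, 3 of 10 genes rose and 0 fell in wdr-23 animals with control RNAi relative to N2, and 2 fell and 0 rose with skn-1 RNAi relative to wdr-23 animals with control RNAi. Of all tested probe sets, 17.4% rose and 10.1% fell in the first comparison, and 12.6% fell and 9.99% rose in the second. No test of the release genes as a list was run. The unc-13 transcript, encoding the factor that primes docked vesicles, had signals of 169.8, 179.9 and 182 in wdr-23 animals with skn-1 RNAi, 363, 279.6, 319.7 and 265 in wdr-23 animals with control RNAi and 217, 224 and 215 in N2 animals. The groups did not overlap, and the lowest signals were those with skn-1 RNAi. It rose 1.36-fold, a log2 change of 0.45 (adjusted p = 0.0196, SE 0.13), over N2, and with skn-1 RNAi it fell, with a log2 change of -0.72 (adjusted p = 0.00106, SE 0.13). Its 2 other probe sets also rose, by 0.57 (adjusted p = 0.00786, SE 0.14) and 0.60 (adjusted p = 0.00655, SE 0.15), and fell with skn-1 RNAi, with log2 changes of -0.82 (adjusted p = 0.000691, SE 0.14) and -0.94 (adjusted p = 0.000232, SE 0.15). The rise over N2 did not pass without N2 replicate 1 (0.44, adjusted p = 0.0585) or 3 (0.44, adjusted p = 0.0525), without replicate 1 of wdr-23 with control RNAi (0.37, adjusted p = 0.0544), after quantile normalization (0.29, adjusted p = 0.12) or after median centring (0.25, adjusted p = 0.153).

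The aex-3 transcript, encoding the exchange factor that activates the vesicle GTPase RAB-3, had signals of 37.5, 58.1 and 66.6 in wdr-23 animals with skn-1 RNAi, 105, 63.6, 65.6 and 77.8 in wdr-23 animals with control RNAi and 41.02, 38.6 and 28.3 in N2 animals. Every array of wdr-23 with control RNAi was above N2, while the arrays with skn-1 RNAi overlapped both. It rose 1.75-fold, a log2 change of 0.81 (adjusted p = 0.00723, SE 0.20), relative to N2, and the change with skn-1 RNAi, -0.41 (adjusted p = 0.154, SE 0.20), did not pass. This probe set has a suffix that marks probes able to match further transcripts, and one of aex-3 without a suffix gave 0.51 (adjusted p = 0.0814) against N2. The rab-3 transcript itself had 309.6, 468 and 472 with skn-1 RNAi, 306, 516, 311 and 702 in wdr-23 animals with control RNAi and 309, 294 and 324 in N2. Its change of 0.46 (adjusted p = 0.149, SE 0.23) in wdr-23 animals with control RNAi relative to N2 did not pass, although another probe set of the gene rose by 0.60 (adjusted p = 0.00907, SE 0.16).

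The snt-1 transcript, encoding a synaptotagmin and calcium sensor for release, was above N2 on every array of both wdr-23 groups. Its signals were 129, 198 and 171 in wdr-23 animals with skn-1 RNAi, 160.5, 208, 178 and 172 in wdr-23 animals with control RNAi and 121, 123 and 104.05 in N2 animals. It rose 1.47-fold, a log2 change of 0.55 (adjusted p = 0.0145, SE 0.15), in wdr-23 animals with control RNAi relative to N2. With skn-1 RNAi the change was -0.11 (adjusted p = 0.632, SE 0.15) relative to wdr-23 animals with control RNAi and 0.44 (adjusted p = 0.141, SE 0.17) relative to N2, and neither passed. The rise was lost without N2 replicate 3 (0.49, adjusted p = 0.0576), after quantile normalization (0.36, adjusted p = 0.0936) and after median centring (0.35, adjusted p = 0.0762).

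The 3 SNARE genes differed in their calls. The unc-64 transcript, encoding the syntaxin of the plasma membrane, had signals of 327, 349.7 and 350.4 in wdr-23 animals with skn-1 RNAi, 559.6, 470.2, 608 and 432 in wdr-23 animals with control RNAi and 274, 368 and 513 in N2 animals. The N2 arrays overlapped both other groups, which did not overlap each other. It fell with skn-1 RNAi, with a log2 change of -0.56 (adjusted p = 0.0298, SE 0.17), and its change over N2 in wdr-23 animals with control RNAi, 0.44 (adjusted p = 0.0696, SE 0.17), did not pass. It passed without N2 replicate 3 (0.66, adjusted p = 0.00989) or replicate 4 of wdr-23 with control RNAi (0.52, adjusted p = 0.0491). The fall with skn-1 RNAi was lost without any 1 array of that group (-0.57 to -0.53, adjusted p = 0.0681 to 0.0978), without replicate 1 (-0.52, adjusted p = 0.0612) or 3 (-0.48, adjusted p = 0.0771) of wdr-23 with control RNAi, after median centring (-0.41, adjusted p = 0.0737) and with no filter (adjusted p = 0.0569). The ric-4 transcript, encoding the SNAP family partner of syntaxin, had 390.0, 552 and 499.6 with skn-1 RNAi, 449, 571, 588 and 765 in wdr-23 animals with control RNAi and 393, 266 and 638 in N2. Its changes of 0.50 (adjusted p = 0.11, SE 0.23) over N2 and -0.28 (adjusted p = 0.392, SE 0.23) with skn-1 RNAi did not pass on this probe set. Without N2 replicate 3 the change over N2 was 0.81 (adjusted p = 0.0103), and another probe set of ric-4 gave 0.71 (adjusted p = 0.00108, SE 0.14) and -0.64 (adjusted p = 0.00312, SE 0.14). The snb-1 transcript, encoding the synaptobrevin of the vesicle, had 3145, 2922 and 2647 with skn-1 RNAi, 2744, 2792, 3006 and 2619 in wdr-23 animals with control RNAi and 3248, 2687 and 2870.4 in N2, and the groups overlapped. Its change was -0.07 over N2, with a 95% interval of -0.29 to 0.15, and 0.06 with skn-1 RNAi, with an interval of -0.17 to 0.28.

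The other 3 release genes did not pass the test in any comparison. The unc-18 transcript, encoding a syntaxin-binding protein, had a 95% interval of -0.32 to 0.32 for its log2 change in wdr-23 animals with control RNAi relative to N2 (adjusted p = 0.999). The unc-10 transcript, encoding the RIM scaffold of the active zone, changed by 0.14 (adjusted p = 0.537, SE 0.16), and the unc-2 transcript, encoding the calcium channel that triggers release, by 0.20 (adjusted p = 0.361, SE 0.16). With skn-1 RNAi their changes relative to wdr-23 animals with control RNAi were -0.18, -0.06 and -0.15, for unc-18, unc-10 and unc-2 in that order.

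**Figure D4:**
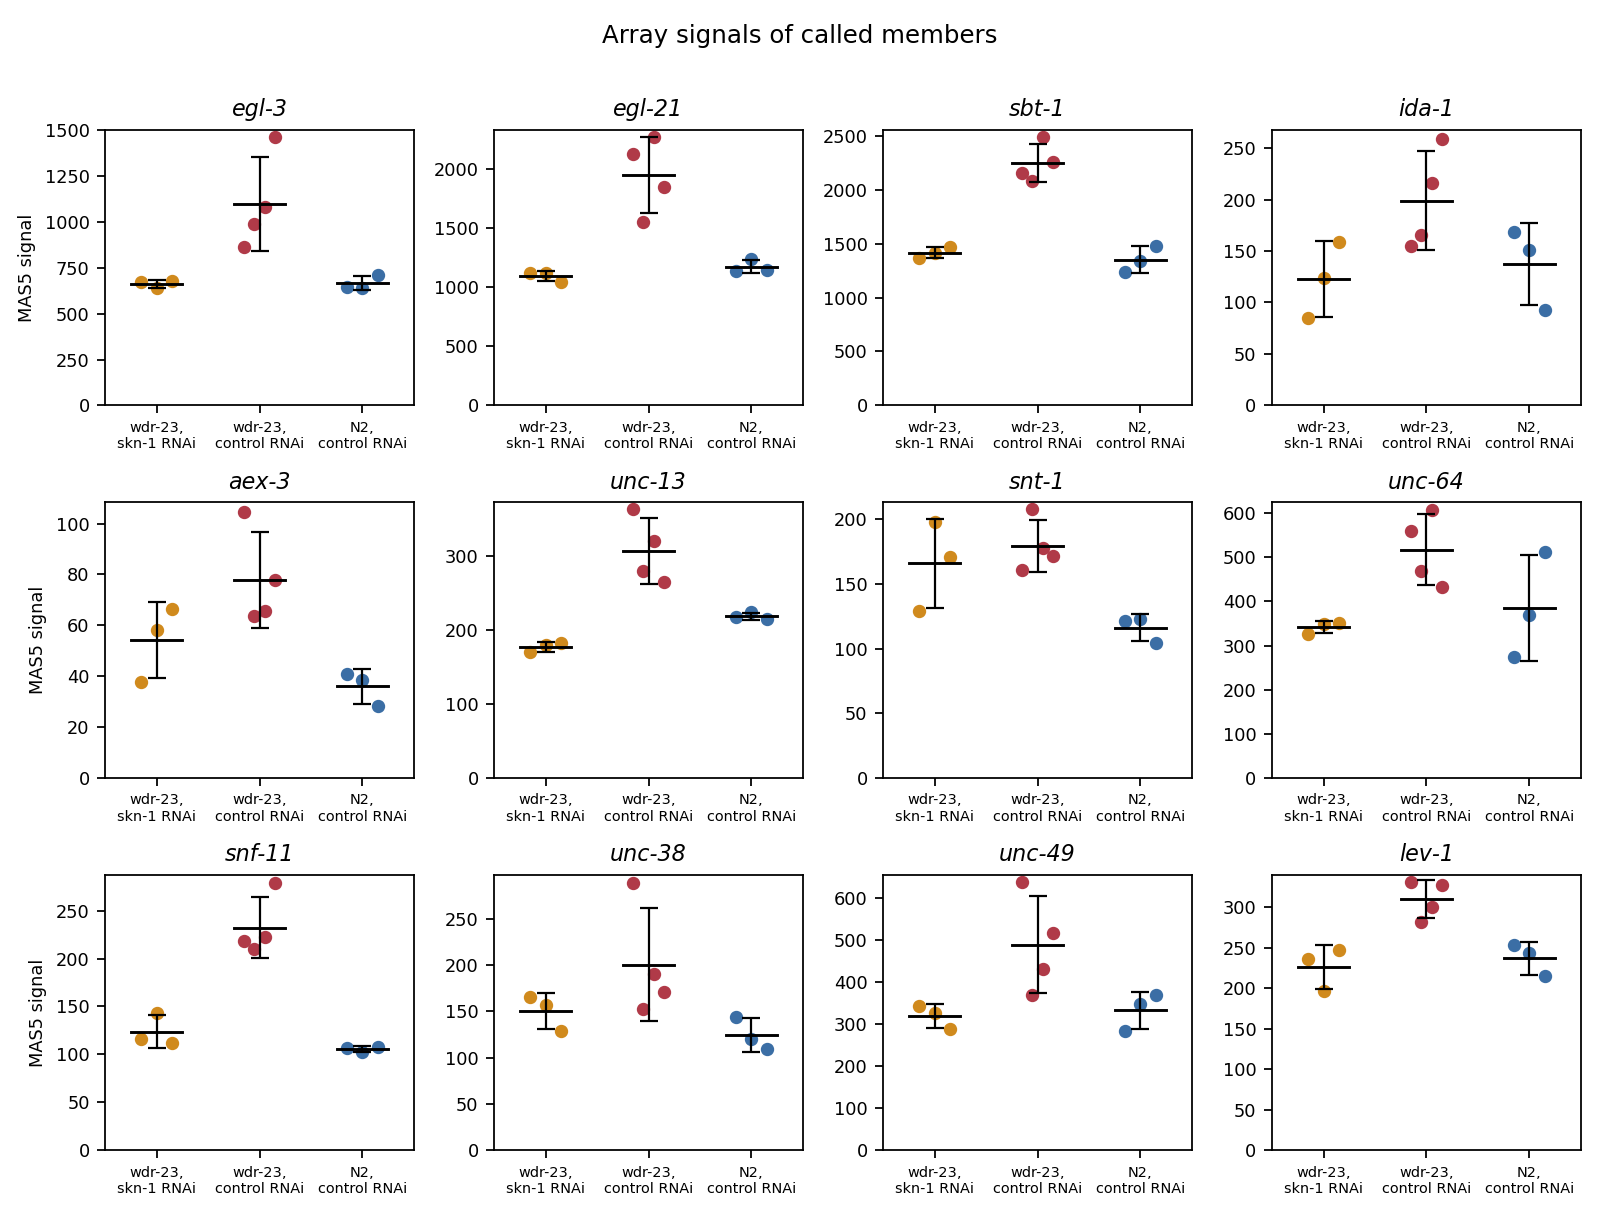
MAS5 signal (y axis, linear, from 0) of 12 genes that passed the test in 1 or more comparisons, on 3 arrays of wdr-23 with skn-1 RNAi, 4 of wdr-23 with control RNAi and 3 of N2; points are arrays, bars are mean ± SD. The 4 arrays of wdr-23 with control RNAi are above all others for egl-3, egl-21, sbt-1 and snf-11, the groups overlap for ida-1, and N2 overlaps both other groups for unc-64.

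Of 7 receptor subunit genes, 5 were tested, 3 rose and 0 fell in wdr-23 animals with control RNAi relative to N2, and 2 fell and 0 rose with skn-1 RNAi relative to those. Among all tested probe sets, 17.4% rose and 10.1% fell in the first comparison, and 12.6% fell and 9.99% rose in the second. The 3 rises were all lost after quantile normalization and after median centring. The unc-49 transcript, encoding the GABA receptor of body-wall muscle, had signals of 343, 325 and 288 in wdr-23 animals with skn-1 RNAi, 637, 369, 431 and 517 in wdr-23 animals with control RNAi and 283, 347 and 368 in N2 animals. The arrays of wdr-23 with control RNAi lay above the others, the lowest of them at 369 beside 368 for the highest N2 array, and the other groups overlapped. It rose by 0.51 (adjusted p = 0.0295, SE 0.16) and fell with skn-1 RNAi, with a log2 change of -0.56 (adjusted p = 0.0217, SE 0.16). The rise was lost without N2 replicate 1 (0.40, adjusted p = 0.139) or 2 (0.54, adjusted p = 0.054) and without replicate 1 (0.38, adjusted p = 0.0794) or 4 (0.47, adjusted p = 0.0646) of wdr-23 with control RNAi, under both other scalings (0.43 and 0.31) and with no filter (adjusted p = 0.0532). The fall was lost without replicate 2 (-0.58, adjusted p = 0.0534) or 3 (-0.49, adjusted p = 0.0898) of wdr-23 with skn-1 RNAi and without replicate 1 (-0.43, adjusted p = 0.0562) or 4 (-0.53, adjusted p = 0.0509) of wdr-23 with control RNAi, and after median centring (-0.42, adjusted p = 0.0577). Another tested probe set of unc-49 changed by 0.06 (adjusted p = 0.808, SE 0.16) and -0.28 (adjusted p = 0.209, SE 0.16).

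Of the 39 genes, 4 encode subunits of the levamisole-sensitive acetylcholine receptor of body-wall muscle, and their calls differed. The unc-38 transcript had signals of 165, 156 and 128 in wdr-23 animals with skn-1 RNAi, 288, 152, 189.7 and 171 in wdr-23 animals with control RNAi and 144, 119.8 and 109 in N2 animals. The lev-1 transcript had 236, 196 and 247 with skn-1 RNAi, 331, 282, 300.4 and 328 in wdr-23 animals with control RNAi and 253, 243 and 215 in N2. The unc-29 transcript had 84.7, 113 and 117 with skn-1 RNAi, 121, 139, 119.8 and 84.9 in wdr-23 animals with control RNAi and 84.2, 103.5 and 83.1 in N2. The wdr-23 arrays with control RNAi lay above N2 for unc-38 and lev-1 and overlapped N2 for unc-29. In that comparison unc-38 rose by 0.58 (adjusted p = 0.0275, SE 0.18) and lev-1 by 0.36 (adjusted p = 0.0477, SE 0.13), while unc-29 changed by 0.30 (adjusted p = 0.211, SE 0.17) and did not pass. With skn-1 RNAi lev-1 fell, with a log2 change of -0.43 (adjusted p = 0.0274, SE 0.13), and unc-38 changed by -0.34 (adjusted p = 0.193, SE 0.18) and unc-29 by -0.12 (adjusted p = 0.647, SE 0.17). The rise of lev-1 was lost without 9 of the 10 arrays taken 1 at a time (0.30 to 0.41, adjusted p = 0.051 to 0.154), the exception being replicate 2 of wdr-23 with control RNAi. Its fall was lost without replicate 1 (-0.46, adjusted p = 0.0596) or 2 (-0.33, adjusted p = 0.135) of wdr-23 with skn-1 RNAi and replicate 1 (-0.40, adjusted p = 0.0569) or 4 (-0.40, adjusted p = 0.0592) of wdr-23 with control RNAi, after quantile normalization (-0.34, adjusted p = 0.0745) and after median centring (-0.28, adjusted p = 0.122). The rise of unc-38 was lost without N2 replicate 2 (0.56, adjusted p = 0.0727) or 3 (0.50, adjusted p = 0.0953) and without replicate 1 of wdr-23 with control RNAi (0.41, adjusted p = 0.0715). Both rises were lost under quantile normalization and median centring, at 0.39 and 0.38 for unc-38 and 0.21 and 0.16 for lev-1, and with no filter (adjusted p = 0.0584 for unc-38 and 0.0653 for lev-1). That of lev-1 was lost with 2 groups in the fit as well (adjusted p = 0.0651).

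The transcript of the fourth muscle subunit, unc-63, was too dim to test, at 22.8, 31.5 and 34.0 in wdr-23 animals with skn-1 RNAi, 36.7, 36.3, 33.4 and 66.1 in wdr-23 animals with control RNAi and 32.4, 16.9 and 35.3 in N2 animals. The acr-12 transcript, encoding a subunit of the acetylcholine receptor of motor neurons, was too dim as well, at 9.999, 32.4 and 7.03 with skn-1 RNAi, 52.4, 19.3, 36.8 and 19.98 in wdr-23 animals with control RNAi and 5.49, 6.11 and 31.3 in N2. The acr-2 transcript, encoding another subunit of that receptor, had 22.5, 41.7 and 26.7 with skn-1 RNAi, 45.5, 50.8, 42.6 and 27.7 in wdr-23 animals with control RNAi and 27.2, 23.6 and 36.98 in N2. Its groups overlapped, and it changed by 0.32 (adjusted p = 0.263, SE 0.21) in wdr-23 animals with control RNAi relative to N2. Of 28 tested markers of body-wall muscle, 7 rose and 0 fell in wdr-23 animals with control RNAi relative to N2, and 3 fell (10.7%) and 0 rose with skn-1 RNAi, beside 17.4% and 12.6% of all tested probe sets. After median centring 3 rose and 5 fell over N2. Summed muscle signals were 100785 to 109092 with skn-1 RNAi, 108879 to 114777 in wdr-23 animals with control RNAi and 105157 to 114289 in N2, so that the groups overlapped. Their part in the receptor results was not tested.

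None of the G protein, channel and motor genes passed the test in any comparison. The goa-1 transcript, encoding the Go protein that restrains release, changed by 0.03 in wdr-23 animals with control RNAi relative to N2, with a 95% interval of -0.18 to 0.24. The egl-30 transcript, encoding the Gq protein that promotes release, changed by 0.17 (adjusted p = 0.432, SE 0.15) in that comparison and by -0.44 (adjusted p = 0.0516, SE 0.15) with skn-1 RNAi. Its signals were 82.5, 103.7 and 84.0 with skn-1 RNAi, 126, 129, 106 and 155 in wdr-23 animals with control RNAi and 103.97, 109.7 and 122 in N2, and the arrays with skn-1 RNAi lay below all others. Without replicate 3 of wdr-23 with control RNAi the change with skn-1 RNAi was -0.52 (adjusted p = 0.0348), and it also passed without an intensity trend (adjusted p = 0.0358). The slo-1 transcript, encoding the calcium-activated potassium channel that limits release, changed by 0.16 (adjusted p = 0.537, SE 0.18) over N2. The unc-104 transcript, encoding the kinesin that carries synaptic vesicle precursors, changed by 0.44 (adjusted p = 0.0932, SE 0.19) over N2. Without replicate 1 of wdr-23 with skn-1 RNAi, an array outside that contrast which adds to the shared estimate of spread, unc-104 passed (0.44, adjusted p = 0.0429). The unc-116 transcript, encoding the heavy chain of conventional kinesin, changed by -0.19 (adjusted p = 0.43, SE 0.18) over N2, and its signals ran from 2262 to 3508 with skn-1 RNAi, 2184 to 3350 in wdr-23 animals with control RNAi and 2391 to 3541 in N2.

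Between wdr-23 animals with skn-1 RNAi and N2 animals, 0 of the 34 tested genes passed limma's test in either direction, beside 6.34% of all tested probe sets, 3.88% that rose and 2.46% that fell. At an unadjusted p under 0.05 there were 2, snt-1 and unc-25. The log2 changes had a median of 0.01 and ran from -0.46 for cha-1 to 0.44 for snt-1, with 17 positive and 17 negative. Arrays of wdr-23 with skn-1 RNAi lay all above N2 for 2 genes, snt-1 and snf-11, and all below for 4, unc-13, egl-21, unc-25 and egl-30, beside 14.9% and 11.4% of all tested probe sets. The 95% intervals were -0.45 to 0.07 for bas-1, -0.34 to 0.33 for egl-3, -0.39 to 0.18 for egl-21, -0.17 to 0.31 for sbt-1 and -0.31 to 0.34 for tdc-1. Changes within these intervals could not be told from 0 with 3 arrays in each group. Among the further monoamine genes, tbh-1 was the one that rose relative to N2, 1.56-fold, a log2 change of 0.64 (adjusted p = 0.023, SE 0.16). That call was lost without N2 replicate 1 or 2, or without any 1 array of wdr-23 with skn-1 RNAi (0.61 to 0.66, adjusted p = 0.0638 to 0.0808).

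Of 39 genes, 20 had more than 1 probe set of their own. For 17 of these a further probe set was bright enough, 20 probe sets in all. The sign matched that of the chosen probe set for 18 of 20 in wdr-23 control RNAi against N2 control RNAi and for 17 of 20 in wdr-23 skn-1 RNAi against wdr-23 control RNAi. Where the chosen probe set was called, 7 of 7 and 6 of 6 further probe sets had its sign in these comparisons, and 2 in each were called, all of unc-13. The chosen probe set of 17 of the 39 genes, and of 9 of the 15 called in either comparison, has such a suffix, so that these signals may hold RNA of related genes. Among the called genes, snt-1, egl-3, snf-11, bas-1, tdc-1 and unc-38 have probe sets with no suffix.

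The other genes of neurotransmission, 244 listed and 175 tested, were counted in the same way. In wdr-23 animals with control RNAi 31 rose (17.7%) and 7 fell (4.0%) relative to N2, with a median log2 change of 0.21. The share that rose was near the 17.4% of all tested probe sets, and 10.1% of those fell. With skn-1 RNAi 3 rose (1.71%) and 23 fell (13.1%) relative to wdr-23 animals with control RNAi, with a median of -0.17, and the share that fell was near the 12.6% of all tested probe sets, of which 9.99% rose. In wdr-23 animals with skn-1 RNAi 1 rose and 0 fell relative to N2. Of 19 further tested genes of dense-core vesicles and peptide processing, 3 rose (15.8%) and 0 fell over N2, and 0 rose and 2 fell (10.5%) with skn-1 RNAi, shares at or below those of all tested probe sets. Both that fell act in peptide amidation. The pghm-1 transcript, encoding the hydroxylating enzyme, had signals of 774, 688 and 731 in wdr-23 animals with skn-1 RNAi, 1437, 1384, 1200.2 and 1129.8 in wdr-23 animals with control RNAi and 796, 823 and 746 in N2 animals. The pgal-1 transcript, encoding the lyase that completes the step, had 1828, 1560.4 and 1527 with skn-1 RNAi, 2361, 2639, 2945 and 2493 in wdr-23 animals with control RNAi and 1805, 1909 and 1625 in N2. On both, every array of wdr-23 with control RNAi was above all others. The rises over N2 were 0.69 (adjusted p = 0.000365, SE 0.12) for pghm-1 and 0.55 (adjusted p = 0.00196, SE 0.11) for pgal-1, and the falls with skn-1 RNAi were -0.80 (adjusted p = 0.000126, SE 0.12) and -0.67 (adjusted p = 0.000534, SE 0.11). The nlg-1 transcript, encoding the neuroligin of the postsynaptic side, had 229, 268 and 172 with skn-1 RNAi, 379, 493, 311 and 425 in wdr-23 animals with control RNAi and 153, 141 and 229.9 in N2, rose by 1.13 (adjusted p = 0.000319, SE 0.19) and fell with skn-1 RNAi, with a log2 change of -0.80 (adjusted p = 0.00623, SE 0.19). The lev-10 transcript, encoding the protein that clusters acetylcholine receptors on muscle, had 437, 468 and 533 with skn-1 RNAi, 769, 575, 769 and 629.7 in wdr-23 animals with control RNAi and 382, 405 and 393 in N2, rose by 0.76 (adjusted p = 0.000424, SE 0.13) and fell with skn-1 RNAi, with a log2 change of -0.49 (adjusted p = 0.0132, SE 0.13). That fall was lost without replicate 1 of wdr-23 with skn-1 RNAi (-0.43, adjusted p = 0.0715) and after median centring (-0.35, adjusted p = 0.053).

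By list, and to be read against those shares over all tested probe sets, the counts over N2 in wdr-23 animals with control RNAi were 7 up and 1 down of 33 vesicle cycle genes (21.2% up), 4 up and 1 down of 28 acetylcholine genes (14.3% up), 4 up and 0 down of 19 glutamate genes (21.1% up), 2 up and 1 down of 5 GABA genes, 5 up and 2 down of 33 G protein and excitability genes (15.2% up), and 1 up and 2 down of 20 axonal transport genes (5.0% up). With skn-1 RNAi relative to wdr-23 animals with control RNAi they were 0 up and 5 down, 0 and 3, 0 and 1, 0 and 0, 1 and 6, and 1 and 1 in the same order of lists. The shares that fell there were 15.2% of vesicle cycle genes, 10.7% of acetylcholine genes and 18.2% of G protein and excitability genes. The direction of some lists turned with the scaling. Under median centring the vesicle cycle list had 3 up and 4 down over N2, the G protein list 0 up and 3 down, and the axonal list 6 up and 0 down with skn-1 RNAi. Under quantile normalization the GABA list had 0 up and 1 down over N2 and the G protein list 1 up and 2 down. Of 14 tested genes listed as pan-neuronal outside the synapse, 3 rose (21.4%) and 0 fell over N2, with a median of 0.12, and 4 fell (28.6%) and 0 rose with skn-1 RNAi, with a median of -0.22. Summed signals of this list were 5852 to 6524 in wdr-23 animals with skn-1 RNAi, 6256 to 7071 in wdr-23 animals with control RNAi and 6060 to 6508 in N2, so that the groups overlapped. The list also holds lim-4, egl-46, mig-13 and sup-17, which are not markers of all neurons. Its counts and sums are therefore no measure of neuronal content. Touch receptor markers had 4 rises (36.4%) and 0 falls of 11 over N2, and ciliated neuron markers 1 rise (7.69%) and 0 falls of 13, while under median centring these were 1 and 1, and 1 and 3. With skn-1 RNAi 3 of the 11 touch receptor markers fell (27.3%) and 0 rose, beside 12.6% and 9.99% of all tested probe sets. After median centring 2 of them fell and 1 rose. Of the 13 ciliated neuron markers, 0 fell and 0 rose with skn-1 RNAi. Summed touch neuron signals were 3609 to 3664 in wdr-23 animals with skn-1 RNAi, 3807 to 4124 in wdr-23 animals with control RNAi and 3494 to 4141 in N2. Summed ciliated neuron signals were 2648 to 3092 with skn-1 RNAi, 2932 to 3449 in wdr-23 animals with control RNAi and 2995 to 3446 in N2. No marker was listed at 0. The part of these markers in the results of the 39 genes was not tested.

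**Figure D5:**
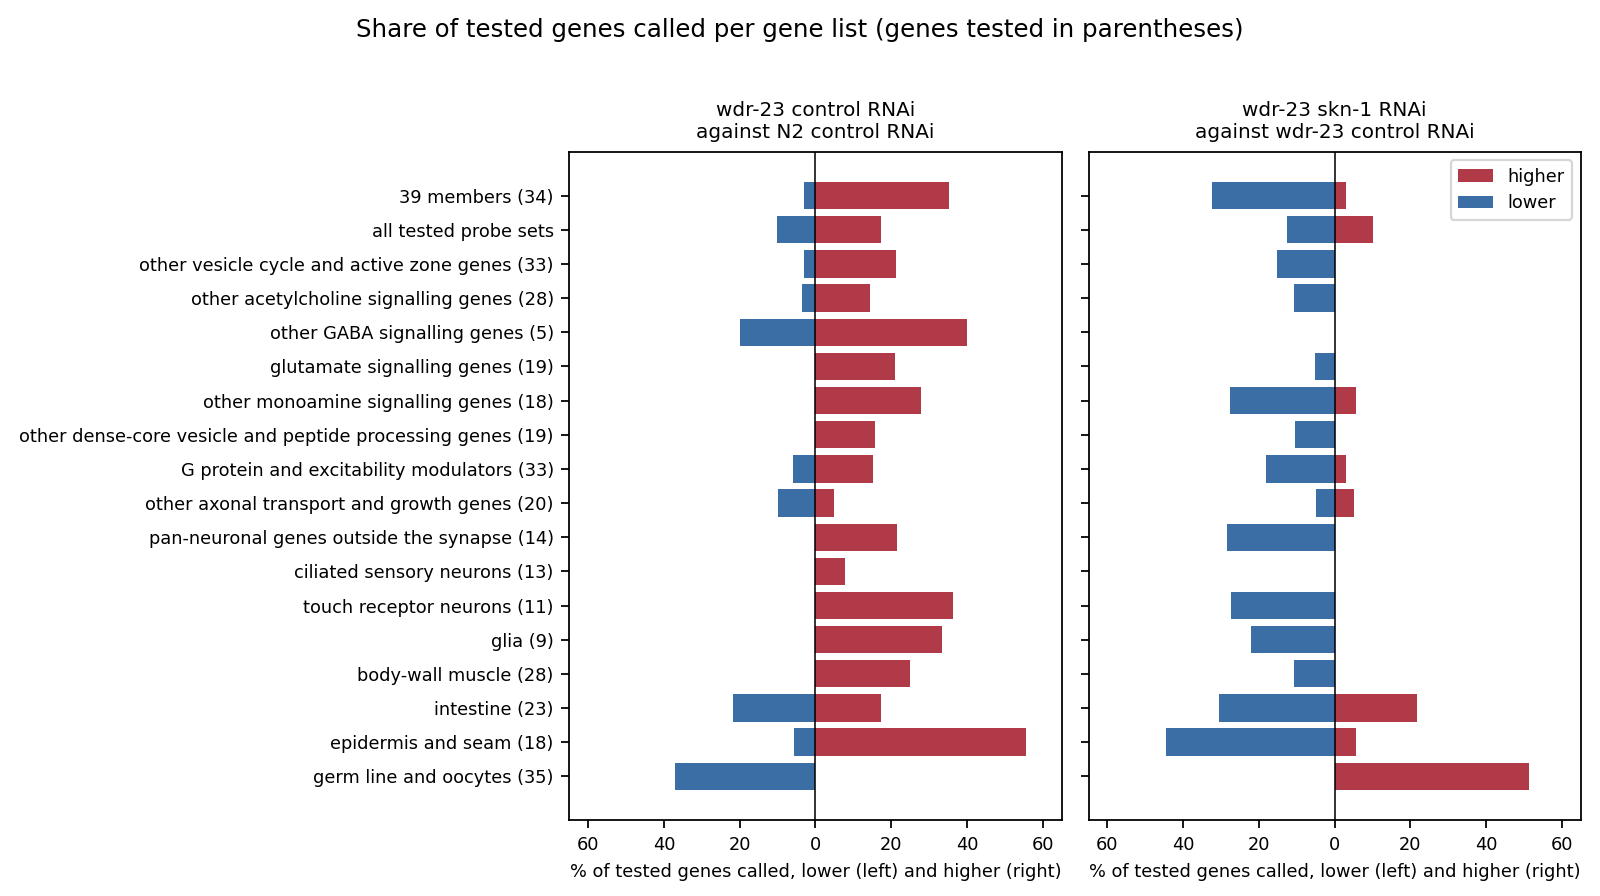
Share of tested genes in each list that rose (red, right) or fell (blue, left), in percent, in wdr-23 control RNAi against N2 control RNAi and in wdr-23 skn-1 RNAi against wdr-23 control RNAi; numbers in parentheses are genes tested. Of the 39 genes 12 rose and 1 fell in the left panel and 1 rose and 11 fell in the right panel, while germ line genes show 13 falls and then 18 rises.

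Within groups, the median deviation of the 34 tested genes from their group means ran from -0.12 to 0.05 on the log2 scale over the 10 arrays, against -0.01 to 0.01 over all probe sets. The lowest was replicate 2 of wdr-23 with control RNAi, where 12 of 34 genes were above the group mean. On replicate 2 of wdr-23 with skn-1 RNAi 26 of 34 were above it, at a median deviation of 0.05. Signals of aex-3 and rab-3 spread widely between replicates, and rab-3 had 702 on replicate 4 of wdr-23 with control RNAi against 306 on replicate 1.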

How the data were processed

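Biotin-labelled RNA (250 ng of total RNA per sample) from 10 samples was measured on Affymetrix C. elegans arrays, in 3 groups taken from the sample titles. The authors deposited 1 intensity value per probe set and array, made with MAS5 per the submitters' processing notes, which give no version. In those values every array has nearly the same mean, 500.11 to 500.14 after trimming 2% at each end. The array's 22625 probe sets include 77 controls, which were dropped; 20766 were annotated to 1 gene (17118 genes), 887 to several and 895 to none. The 39 members and all gene lists were chosen with earlier results of these data known. By gene ID, 37 of 39 matched the reference gene table, all with the same symbol.

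A pseudocount of 19, set at the rounded 20th percentile of the signals, was added before taking log2. Dim probe sets, the bottom 30% by mean over the arrays, were not tested, which left 15783. limma 3.58.1 in R 4.3.3 (lmFit, eBayes with an intensity trend, two-sided) fitted the 3 groups together without a replicate block, at 16.4 total degrees of freedom. Adjusted p-values (Benjamini-Hochberg) cover all tested probe sets of a comparison, and a call needs an adjusted p under 0.05. Standard errors had medians of 0.152, 0.152 and 0.163 in the comparisons of wdr-23 control RNAi with N2, wdr-23 skn-1 RNAi with wdr-23 control RNAi, and wdr-23 skn-1 RNAi with N2. The number of arrays limits the precision. Each gene was represented by its brightest probe set annotated to it alone. The script was tested on simulated data with independent noise and added changes of 1 or 2 on the log2 scale. That test does not cover smaller changes or differences in scaling between arrays. Alternatives were 2 other scalings, 2 pseudocounts (1 and 64), no filter and a 50% filter, no trend, 2 groups in the fit, a replicate block, no suffixed probe sets, and each array left out. Members were named with all array values where called at a log2 change of at least 0.5, or where partners in a complex differed in call. Of other lists, up to 2 called genes with the largest rise or fall qualified for naming, and not all are printed. No pair of arrays was identical. No scan dates were used, and promoter and protein sequences were not analysed here.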

Additional observations from a re-analysis of the deposited data

Results flagged for a closer look

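In the group of 4 arrays of wdr-23 animals with control RNAi, each of the 39 genes was checked for an array far from the other 3. The gap to the nearest array, as a share of the whole range, was above Dixon's 95% critical value for 2 genes. Chance alone flags about 1 in 20 groups. For unc-10, the RIM scaffold gene, replicate 1 stood at 109 while the others were between 73.9 and 77.7, a gap of 0.89 of the range. For unc-63, a subunit gene of the muscle acetylcholine receptor, replicate 4 stood at 66.1 and the others between 33.4 and 36.7, a gap of 0.899 of the range. Neither gene was called in any comparison, and unc-63 was too dim to test.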

How the results depend on the processing

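The genes were refitted under 20 alternatives, in which 21 (50% filter) to 39 (no filter) of them were tested and each called gene had a value in 18 to 20, and no called gene changed its direction. Of the 13 calls in wdr-23 control RNAi against N2 control RNAi, 6 held in every alternative with a value (egl-3, egl-21, sbt-1, snf-11, cat-1 and bas-1), and of the 12 in wdr-23 skn-1 RNAi against wdr-23 control RNAi, 6 did (unc-13, egl-3, egl-21, sbt-1, snf-11 and bas-1). In wdr-23 control RNAi against N2, quantile normalization and median centring each gave 8 called genes (7 up, 1 down). These scalings shifted the median of all probe sets by -0.07 and -0.20 in that comparison, and by 0.05 and 0.15 in wdr-23 skn-1 RNAi against wdr-23 control RNAi. They changed the counts over all probe sets, up and down, to 1946 and 1955, and 1671 and 4613 in place of 2754 and 1590 for wdr-23 control RNAi against N2. For wdr-23 skn-1 RNAi against wdr-23 control RNAi they gave 1714 and 1626, and 3463 and 1308, in place of 1577 and 1981. For wdr-23 skn-1 RNAi against N2 they gave 459 and 415, and 476 and 514, in place of 613 and 388. Without suffixed probe sets 23 members were tested, and 6 were called in the first of these comparisons and 4 in the second. Calls over all probe sets, in the same order, then numbered 2759, 2097 and 609, since fewer were tested.

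Leaving out 1 array at a time gave 9 to 13 called genes in wdr-23 control RNAi against N2, 7 to 13 in wdr-23 skn-1 RNAi against wdr-23 control RNAi (7 without wdr-23 skn-1 RNAi replicate 1) and 0 to 0 in wdr-23 skn-1 RNAi against N2. Over all probe sets the calls were 2848 to 4125, 2216 to 3533 and 521 to 1043. The lowest came without N2 replicate 1 (2848), and without replicates 1 (2216) and 3 (521) of wdr-23 with skn-1 RNAi. In wdr-23 skn-1 RNAi against N2, 590 calls were left without replicate 2 of wdr-23 with skn-1 RNAi and 591 without N2 replicate 1. Samples of different groups share only replicate numbers: correlations of their deviations were -0.16 to 0.18 for equal numbers and -0.18 to 0.17 for unequal ones. A replicate block gave 11 up and 1 down, 1 up and 8 down, and 0 called genes in the same order of comparisons, without unc-49 and lev-1 in the first and without unc-49, lev-1 and ida-1 in the second, while unc-64 passed over N2 (0.52, adjusted p = 0.0331), and 3815, 2918 and 1016 calls over all probe sets. The cause of these changes was not tested.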

Other observations

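Tissue lists other than those of neurons and muscle also changed. Of 18 tested epidermis and seam genes, 10 rose (55.6%) and 1 fell (5.56%) in wdr-23 animals with control RNAi relative to N2. Over all tested probe sets 17.4% rose and 10.1% fell, and after median centring 7 genes of this list rose and 3 fell. Those that rose by limma included the seam gene wrt-2 (log2 change 2.06, adjusted p = 1.59e-08) and the cuticle collagen gene dpy-7 (1.70, adjusted p = 8.95e-08). With skn-1 RNAi 8 fell (44.4%) and 1 rose (5.56%) relative to wdr-23 animals with control RNAi, beside 12.6% and 9.99% of all tested probe sets. There wrt-2 changed by -1.48 and dpy-7 by -1.08. Relative to N2, both were still called in wdr-23 animals with skn-1 RNAi, at 0.58 (adjusted p = 0.036) for wrt-2 and 0.61 (adjusted p = 0.0197) for dpy-7. Of 9 tested glia genes, 3 rose (33.3%) and 0 fell in wdr-23 animals with control RNAi relative to N2, led by ptr-10 (1.62, adjusted p = 5.25e-05). With skn-1 RNAi 2 of these 9 fell (22.2%) and 0 rose. The glia list includes glt-1, which is also on the glutamate list.

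Of 23 intestine genes, 4 rose (17.4%) and 5 fell (21.7%) in wdr-23 animals with control RNAi relative to N2, beside 17.4% and 10.1% of all tested probe sets. The cysteine protease genes cpr-1 (-3.26, adjusted p = 1.27e-11), cpr-4 (-1.49, adjusted p = 8.41e-09), cpr-5 (-0.77) and cpr-6 (-0.39) were 4 of the 5 that fell. With skn-1 RNAi 5 of the 23 rose (21.7%) and 7 fell (30.4%) relative to wdr-23 animals with control RNAi, beside 9.99% and 12.6% of all tested probe sets. The 4 protease genes were among those that rose, with log2 changes of 2.23 for cpr-4, 0.60 for cpr-5 and 0.47 for cpr-6, and the largest for cpr-1 (adjusted p = 6.19e-11). In the same list pept-1, encoding a transporter of small peptides, rose in wdr-23 animals with control RNAi (1.07, adjusted p = 2.36e-05) and fell with skn-1 RNAi (-1.11, adjusted p = 2.26e-05). These genes outside the 39 were chosen after their values were seen.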
